A study of Saccharomyces cerevisiae with 6 samples.

Results

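The autophagy genes described here were the rows of the deposited expression table whose gene symbol is ATG followed by a number. ATG39 and ATG40, the receptors for autophagy of the endoplasmic reticulum, are left out by the rule. There were 25 such genes of 6679 open reading frames (ORFs) in the table. The table uses older gene names, so 10 more ORFs that the RefSeq gene table of assembly R64 calls ATG appear in it under another symbol or none. They are ATG31, ATG32, ATG33, ATG34, ATG36, ATG38, ATG41, ATG42, ATG44 and ATG45, and they are described beside the 25 members as later-named ATG genes and counted apart.

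The libraries came from Saccharomyces cerevisiae SK1, a laboratory strain that sporulates readily, with the genotype given as WT for every library. All cells were pregrown in YPD and then BYTA medium and moved to sporulation medium, and either ethanol (vehicle) or the inducer labelled bEST was added 5 h later. Per the series' design text, the comparison is of cells with and without spliced HAC1 mRNA made in excess; HAC1 encodes the transcription factor of the unfolded protein response. The labels name neither the construct nor its promoter. Poly(A)-selected RNA was sequenced at 6, 6.5 and 7 h from each arm, with 1 library per arm and hour, 3 libraries per arm and no replicate of any hour. HAC1 stood at 127, 128 and 98.4 in vehicle and at 28926, 48866 and 53257 with inducer. No library here has the inducer and a low HAC1 level, so effects of the inducer itself and of HAC1 cannot be told apart.

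Autophagy carries cytoplasm to the vacuole inside double-membrane vesicles, the autophagosomes. The Atg1 kinase complex starts the process, a phosphatidylinositol 3-kinase (PI3-kinase) complex marks the site, vesicles carrying Atg9 and the lipid-transfer protein Atg2 supply membrane, and a pair of ubiquitin-like conjugation reactions attaches Atg8 to phosphatidylethanolamine on the growing membrane. Cargo receptors tie chosen cargo to Atg8, and vacuolar enzymes degrade the delivered vesicle. Autophagy is needed for yeast to sporulate, and starvation raises the transcription of several ATG genes, ATG8 among them.

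The ATG transcripts were present in all libraries and most of them did not pass the test for a difference between the arms. ATG22, an exporter of amino acids from the vacuole, was the 1 member of 25 that rose with inducer, where 10.0% of all genes tested rose, and no member fell, where 8.35% did. Of the 10 later-named genes ATG31, a subunit of the Atg1 complex, and ATG41, a protein that acts in the movement of Atg9, rose, and none fell. All 3 calls were lost when the 6.5 h or the 7 h pair of libraries was left out. ATG8 made up most of the summed level of the members in every library, at 71.1 to 80.2%, and was within its own spread between the arms.

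The start regions of ATG8, the most abundant member, and ATG22, the member that rose, are shown because transcription factors that act through short motifs in such regions were among the regulators measured. Both are from RefSeq assembly R64 of strain S288C and were located by gene; no source used here names the build behind the deposited values, and SK1 can differ from S288C. Each runs 5′ to 3′ on the coding strand from 250 bases before to 50 bases after the start of the coding sequence. ATG8 lies at chrII:80682-80981 and ATG22 at chrIII:56478-56777, both on the minus strand. Capitals mark the start codon and every match to a searched motif.
ATG8: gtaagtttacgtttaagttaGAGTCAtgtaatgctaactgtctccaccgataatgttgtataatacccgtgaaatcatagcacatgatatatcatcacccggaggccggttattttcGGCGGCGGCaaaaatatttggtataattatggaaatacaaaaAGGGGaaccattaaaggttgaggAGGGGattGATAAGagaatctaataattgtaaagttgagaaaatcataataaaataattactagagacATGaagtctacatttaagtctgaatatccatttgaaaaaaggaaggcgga
ATG22: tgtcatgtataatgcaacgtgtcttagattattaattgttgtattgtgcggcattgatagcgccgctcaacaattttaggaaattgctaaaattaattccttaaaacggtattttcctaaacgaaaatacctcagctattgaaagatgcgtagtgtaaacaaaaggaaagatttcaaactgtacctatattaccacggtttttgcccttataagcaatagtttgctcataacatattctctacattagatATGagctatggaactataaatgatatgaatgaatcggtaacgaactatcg

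The ATG8 window held GGCGGC, the core of the URS1 element bound by the meiotic regulator Ume6, in a pair of matches that begin 133 and 130 bases before the start codon and overlap. It also held the stress element AGGGG 91 and 68 bases before the start codon, GATAAG of the GATA factors Gln3 and Gat1 at 60 bases, and TGACTC of Gcn4 on the other strand at 230 bases. The ATG22 window held none of the 7 motifs searched on both strands.

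Among the 25 members, URS1 cores were found in ATG8 and ATG19, and among the later-named genes in ATG42; 5.12% of 6020 start regions of the same length held one. The unfolded protein response element CAGCGTG was in none of the 35 ATG windows and in 1.16% of all windows. The related sequence TACGTG was in ATG4, ATG14, ATG19 and ATG36 (7.72% of all windows). GATAAG was in 7 members and 2 later-named genes (14.6% of all windows), TGACTC in 6 and 1 (7.96%), AGGGG in 6 and 2 (21.6%), and CACAAA, the core of the middle sporulation element, in 2 and 3 (18.8%). The TGACTC match of ATG10 began at base 45 of the coding sequence. That of ATG13 began 5 bases before the start codon and ran into it. A match describes the letters of the reference strain and does not show that a factor binds there. The lack of a match does not show that no factor acts on the gene.

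Values are RPKM-type levels, which scale with reads per length of ORF, and differences between inducer and vehicle are on the scale of log2(value + 1). The test was limma across the 6025 ORFs with a mean level of at least 5, with the hour as a factor, so that each difference rests on 3 pairs of libraries. Its p-values were adjusted by Benjamini-Hochberg over all of them, with 0.05 as the threshold, and SE is the standard error of the fitted difference. With 1 library per arm and hour, the p-values of this test rest on how far the difference varied among the 3 hours. That spread includes any change of the response with time. Whether each library had its own culture is not in the labels, so the spread among these 6 libraries behind every p-value here may be technical. All 25 members and all 10 later-named genes passed the filter on low values. Recovered read numbers ran from 6.09 megareads (vehicle, 6.5 h) to 22.0 megareads (inducer, 6.5 h), and the other libraries lay between 9.63 and 13.5. The least covered ATG gene, ATG16, had about 68 reads in its lowest library. All 11 markers of meiosis were detected in every library, with a summed level of 29024 to 34544 in vehicle and 23597 to 29262 with inducer. At 7 h all meiosis markers except REC8 and DIT1 were lower with inducer. At that hour IME1 stood at 1745 in vehicle and 689 with inducer, IME2 at 4136 and 1885, DMC1 at 4555 and 2377, and NDT80 at 2695 and 1702. REC8 stood at 869 and 1083, and DIT1 at 1407 and 1435. The 6 haploid and mating markers, none of them at 0, summed to 787 to 911 in vehicle and 1022 to 2046 with inducer, mostly from MFA1; the part of either shift in the differences below was not tested. In RNA from whole cultures, fewer cells with a transcript and less transcript per cell cannot be told apart.

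**Figure D1:**
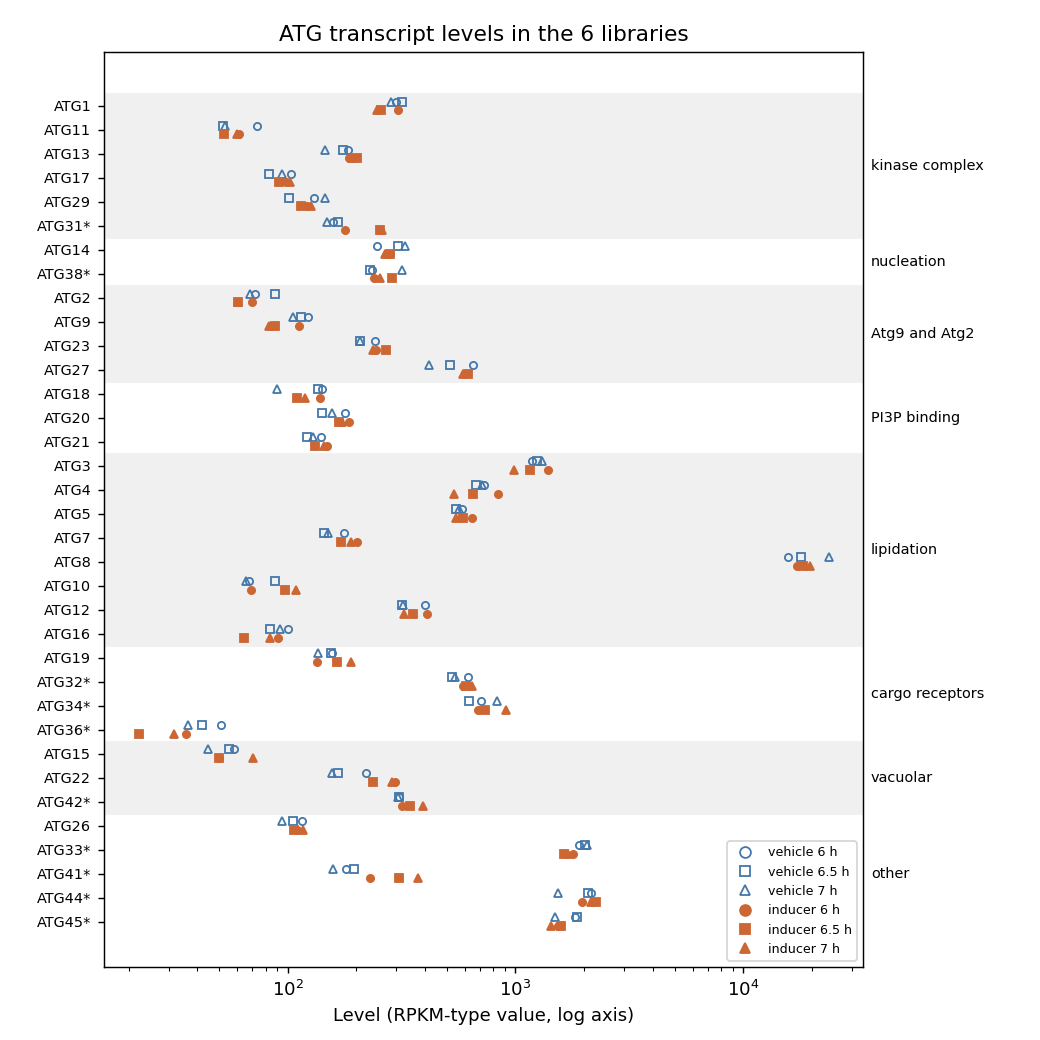
Levels of the 25 members and the 10 later-named genes (asterisks) in the 6 libraries, in RPKM-type values on a log axis, grouped by role; open symbols are vehicle, filled symbols inducer, and the shape gives the hour. ATG8 stands above all other ATG genes at 15711 to 23721, and the symbols of the arms overlap for most genes.

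Mean levels over the 6 libraries ran from 54.7 for ATG15, a vacuolar phospholipase, to 18756 for ATG8. The median member stood at 167, against 126 over all ORFs. ATG8 exceeded 99.7% of all ORFs. The next highest members were ATG3, the enzyme that transfers Atg8 to lipid, at 1212, ATG4, the protease that processes Atg8, at 690, ATG5 at 580 and ATG27 at 567. By role, the median level was 467 for the 8 lipidation genes, 169 for the 4 genes of Atg9 vesicles and lipid transfer, and 123 for the 5 members of the kinase complex. The lowest of the 35 ATG genes was ATG36, a receptor for peroxisomes, at 36.5. Among the later-named genes ATG33, ATG44 and ATG45 were the most abundant, at 1852, 2022 and 1620.

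The next comparison asked whether the ATG genes differed between inducer and vehicle at matched hours. In all, 1 of 25 members was higher at adjusted p under 0.05 by limma, against 10.0% of all genes tested, and 0 were lower, against 8.35% (18.4% in either direction). At an unadjusted p under 0.05 there were 2 of the 25, the second being ATG9, against 35.3% of all genes. The median difference of the members was 0.07, and the median of all genes tested was -0.08. The members ran from -0.29 for ATG9 to 0.60 for ATG22, while the 5th and 95th percentiles of all genes were -0.69 and 1.07. For each of the 25 members the 95% interval of the difference lay within a 2-fold change either way, and for 22 it lay within 1.5-fold. The levels of the arms did not overlap for 2 members, ATG13 and ATG22, both higher with inducer, against 17.3% of all genes in that direction and 14.1% in the other. Of the later-named genes 2 of 10 rose and 0 fell, with a median of 0.12; the arms did not overlap for ATG31, ATG41 and ATG42, higher with inducer, and for ATG33 and ATG36, lower.

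**Figure D2:**
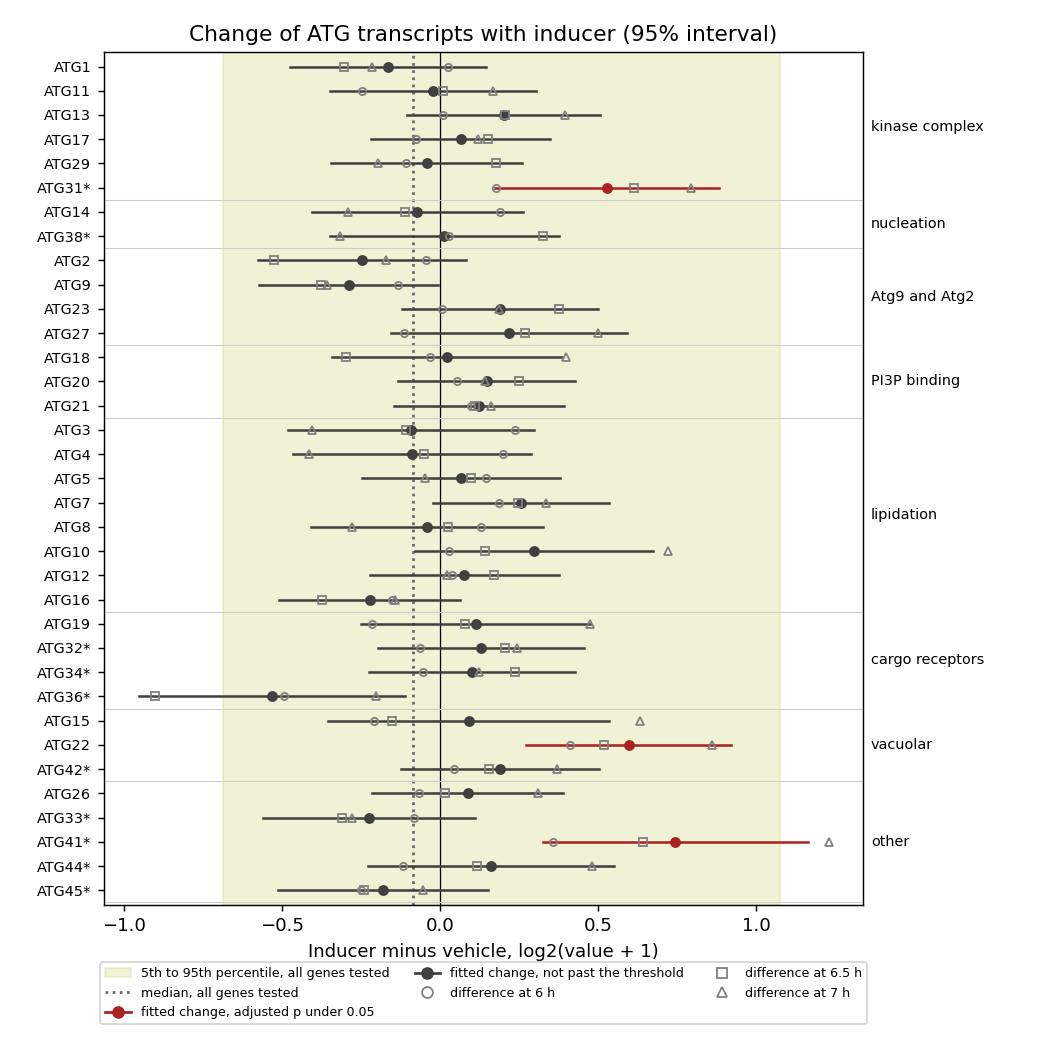
Difference between inducer and vehicle for each ATG gene on the log2(value + 1) scale, with its 95% interval (lines), the difference at each hour (open symbols) and the 5th to 95th percentile of all 6025 genes tested (shaded). Genes past the threshold, in red, are ATG22, ATG31 and ATG41; of the other intervals those of ATG9 and ATG36 leave out 0.

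In the order 6, 6.5 and 7 h, which is kept below, the vehicle libraries held ATG22 at 221, 166 and 157 and the inducer libraries at 295, 238 and 286. Every inducer library was above every vehicle library. The difference was 0.60 ± 0.14 (SE, 3 pairs; limma adjusted p = 0.0273), which is 1.51-fold, and it was positive at all 3 hours, at 0.41, 0.52 and 0.86. ATG31 stood at 158, 166 and 149 in vehicle and at 179, 255 and 259 with inducer. The arms were close at 6 h and apart at the later hours, and the difference was 0.53 ± 0.15 (limma adjusted p = 0.0499). ATG41 stood at 180, 196 and 159 in vehicle and at 230, 307 and 374 with inducer. It had the highest difference of the 35 ATG genes, 0.74 ± 0.18 (limma adjusted p = 0.0306), or 1.67-fold, with 0.36, 0.64 and 1.23 at the 3 hours. Each of the 3 calls was lost without the 6.5 h pair, without the 7 h pair, without the filter on low values and without the trend in the variance. The differences of ATG22, ATG31 and ATG41 without the 7 h pair were 0.46, 0.40 and 0.50. The ATG31 call was also lost with a pseudocount of 0.1, and those of ATG22 and ATG31 without a term for the hour.

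In the kinase complex 0 of 5 members passed by limma, where 18.4% of all genes did, with a median of -0.02. At an unadjusted p under 0.05 there were also 0, against 35.3% of all genes. ATG1, the protein kinase, stood at 300, 318 and 285 in vehicle and at 305, 257 and 245 with inducer, a difference of -0.17 ± 0.13 (limma adjusted p = 0.408). The arms met at 6 h, and both later inducer libraries lay below all vehicle libraries. ATG13, the subunit through which nutrient signals reach Atg1, stood at 184, 175 and 146 in vehicle and at 185, 202 and 192 with inducer (0.20 ± 0.13, limma adjusted p = 0.311). Its lowest inducer library exceeded the highest vehicle library only slightly. ATG17 and ATG29, which with Atg31 form the scaffold used in starvation, were at 0.07 ± 0.12 and -0.04 ± 0.13. ATG11, the scaffold of selective autophagy, was at -0.02 ± 0.14. ATG31 was thus the 1 of 6 genes of this role, the later-named one, past the threshold; the difference of its change from that of ATG17 or ATG29 was not tested. ATG29 shares 24 bases with a neighbour on the opposite strand in the R64 annotation, so its value is uncertain if reads were not counted by strand.

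The nucleation role held a single member. ATG14, the subunit that makes the PI3-kinase complex specific to autophagy, stood at 247, 304 and 328 in vehicle and at 281, 281 and 267 with inducer. The inducer libraries lay inside the range of the vehicle libraries, and the difference was -0.07 ± 0.14 (limma adjusted p = 0.749). ATG38, the later-named gene of a further subunit, was at 0.01 ± 0.15. The subunits that the PI3-kinase complex shares with other pathways did not pass either. VPS30, which also goes by ATG6, stood at 182, 157 and 183 in vehicle and at 155, 124 and 107 with inducer (-0.44 ± 0.14, limma adjusted p = 0.0707), with no overlap of the arms. VPS34, the catalytic subunit, was at -0.25 ± 0.16 and VPS15, its protein kinase partner, at 0.45 ± 0.21.

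Of the 4 genes for Atg9 vesicles and lipid transfer none passed by limma, where 18.4% of all genes did. ATG9 had an unadjusted p under 0.05, as did 35.3% of all genes. ATG41, which acts in the movement of Atg9 and rose, was counted with the other ATG genes and not here. ATG9, the membrane protein of the vesicles, stood at 123, 115 and 106 in vehicle and at 112, 88.0 and 82.4 with inducer (-0.29 ± 0.12, limma adjusted p = 0.136). The inducer value was the lower one at each hour. ATG2, the lipid-transfer protein, was at -0.25 ± 0.14, and ATG23 and ATG27, which help Atg9 to move, were at 0.19 ± 0.13 and 0.22 ± 0.16. Of the 3 members for proteins that bind phosphatidylinositol 3-phosphate none passed: ATG18 was at 0.02 ± 0.16, ATG21 at 0.12 ± 0.12 and the sorting nexin ATG20 at 0.15 ± 0.12. The sorting nexin SNX4 was counted with the selective-autophagy partners.

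Of the 8 lipidation genes 0 passed by limma, where 18.4% of all genes did, and the median was 0.01. An unadjusted p under 0.05 was found for 0 of them, against 35.3% of all genes. ATG8, the ubiquitin-like protein that is joined to lipid, stood at 15711, 18018 and 23721 in vehicle and at 17191, 18353 and 19541 with inducer. The inducer value was higher at 6 and 6.5 h and lower at 7 h. The difference was -0.04 ± 0.16 (limma adjusted p = 0.873), with a 95% interval from -0.41 to 0.33, so the data leave room for a level between 0.75-fold and 1.25-fold that of vehicle. ATG3 stood at 1184, 1244 and 1309 in vehicle and at 1396, 1154 and 987 with inducer, and ATG4 at 730, 672 and 714 and at 838, 648 and 535. Both were above vehicle at 6 h and below it at 7 h, and their differences were -0.09 ± 0.17 and -0.09 ± 0.16. ATG7, the activating enzyme of both conjugation reactions, had a positive difference at each hour and was at 0.26 ± 0.12 (limma adjusted p = 0.172). In the Atg12 branch, ATG12 was at 0.08 ± 0.13, its conjugating enzyme ATG10 at 0.30 ± 0.16, its acceptor ATG5 at 0.07 ± 0.13 and their partner ATG16 at -0.22 ± 0.12.

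The cargo receptors held the single member ATG19, which brings aminopeptidase I and the alpha-mannosidase Ams1 to the vacuole. It stood at 157, 155 and 136 in vehicle and at 135, 164 and 189 with inducer, so the arms crossed between 6 and 6.5 h, and the difference was 0.11 ± 0.16 (limma adjusted p = 0.642). The later-named receptors did not pass. ATG34, a relative of ATG19 that carries Ams1 in starvation, was at 0.10 ± 0.14, and ATG32, the receptor for mitochondria, at 0.13 ± 0.14. ATG36 stood at 50.7, 42.2 and 36.6 in vehicle and at 35.7, 22.1 and 31.7 with inducer, with a difference of -0.53 ± 0.18 (limma adjusted p = 0.0797). Its arms did not overlap, and it passed as lower when the libraries were centred on their medians.

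Of the vacuolar genes, ATG15 was at 0.09 ± 0.19 beside the rise of ATG22, and its differences at the 3 hours were -0.21, -0.15 and 0.63. ATG42, a vacuolar carboxypeptidase, stood at 308, 309 and 304 in vehicle and at 318, 344 and 393 with inducer (0.19 ± 0.13, limma adjusted p = 0.35). All of its inducer libraries lay above its vehicle libraries, by a margin smaller at 6 h than later. ATG26, a sterol glucosyltransferase, was at 0.09 ± 0.13. ATG33 and ATG44, genes of mitochondrial proteins with roles in mitophagy, were at -0.22 ± 0.14 and 0.16 ± 0.17, and ATG45 at -0.18 ± 0.14.

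**Figure D3:**
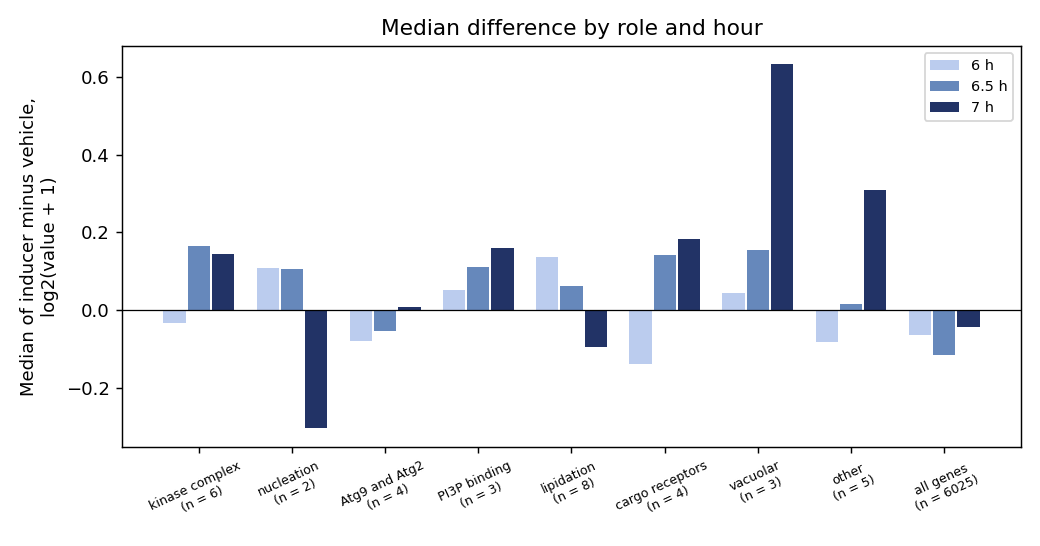
Median difference between inducer and vehicle at 6, 6.5 and 7 h, on the log2(value + 1) scale, for the 35 ATG genes by role and for all 6025 genes tested; n is the number of genes, and each hour rests on 1 library per arm. The lipidation median went from 0.14 to -0.09 and the kinase complex median from -0.03 to 0.14, while the median of all genes was -0.06, -0.11 and -0.04. The role labelled other holds ATG26, ATG33, ATG41, ATG44 and ATG45.

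By hour, the median difference of the 25 members was 0.01, 0.08 and 0.14 at 6, 6.5 and 7 h, and the median of all genes was -0.06, -0.11 and -0.04. Of the members 14, 16 and 15 were higher with inducer at these hours. The lipidation genes had medians of 0.14, 0.06 and -0.09, and 7, 5 and 3 of the 8 were higher. The 4 cargo receptor genes had -0.14, 0.14 and 0.18, and the 3 vacuolar genes 0.04, 0.15 and 0.63. Each hour rests on 1 library per arm, so these medians have no error of their own.

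The last comparison asked how the ATG genes changed from 6 to 7 h. With both arms in 1 fit, 0 of 25 members changed with time by limma, where 0.664% of all genes did (15 rose, 0.249%, and 25 fell, 0.415%). With a library left out, 2 to 10 genes rose and 0 to 4 fell, and without the filter on low values 1 rose and 0 fell. An unadjusted p under 0.05 was found for 3 members (12.0%) and for 22.2% of all genes. These were ATG8, at 0.39 ± 0.17 log2 per hour, ATG9, at -0.32 ± 0.14, and ATG18, at -0.44 ± 0.18 (limma adjusted p = 0.221, 0.219 and 0.196). The median slope of the members was -0.14 per hour and that of all genes -0.15. Centring each library on its median moved the median slope of all genes by 0.15, and the members' median was then 0.01. With that centring 42 genes of the table rose and 17 fell. The direction of a slope near 0 therefore depends on the scaling.

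Within the vehicle arm 0 of 25 members passed by limma, where 0.0996% of all genes rose and 0 fell, and 3 had an unadjusted p under 0.05 (12.0%, against 12.7% of all genes). ATG8 had a slope of 0.59 ± 0.21 log2 per hour in vehicle and 0.18 ± 0.21 with inducer. ATG27 had -0.64 ± 0.19 in vehicle, with 653, 516 and 417 at the 3 hours, and -0.03 ± 0.19 with inducer, with 603, 621 and 591. ATG18 had -0.65 ± 0.23 in vehicle and -0.22 ± 0.23 with inducer. Within the inducer arm 0 members passed, where 3.75% of all genes changed (2.16% rose and 1.59% fell), and 4 had an unadjusted p under 0.05 (16.0%, against 25.6% of all genes). ATG3 and ATG4 had slopes of -0.50 ± 0.19 and -0.65 ± 0.19, and ATG10 and ATG19 had 0.65 ± 0.26 and 0.48 ± 0.19.

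The difference between the slopes of the arms was not past the threshold for any gene in the table (0% of 6025 by limma in either direction). That count was 86 higher and 13 lower without the inducer library at 6.5 h, and 68 and 18 without the one at 7 h, with 0 members among them. The SE of this difference was 0.26 to 0.38 log2 per hour over the members, larger than for the differences between the arms, and a count of 0 does not show that slopes were alike. Among the members 4 had an unadjusted p under 0.05 (16.0%), against 11.9% of all genes. The slope of ATG3 was lower with inducer by -0.64 ± 0.27 log2 per hour, and those of ATG15, ATG19 and ATG27 were higher by 0.84 ± 0.34, 0.69 ± 0.26 and 0.61 ± 0.27 (limma adjusted p between 0.359 and 0.421). ATG41 among the later-named genes had 0.87 ± 0.29 (limma adjusted p = 0.292). With a library left out, the value of ATG15 ran from 0.35 (without inducer at 7 h) to 1.34 (without inducer at 6 h), and that of ATG41 from 0.44 (without vehicle at 7 h) to 1.30 (without vehicle at 6 h).

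**Figure D4:**
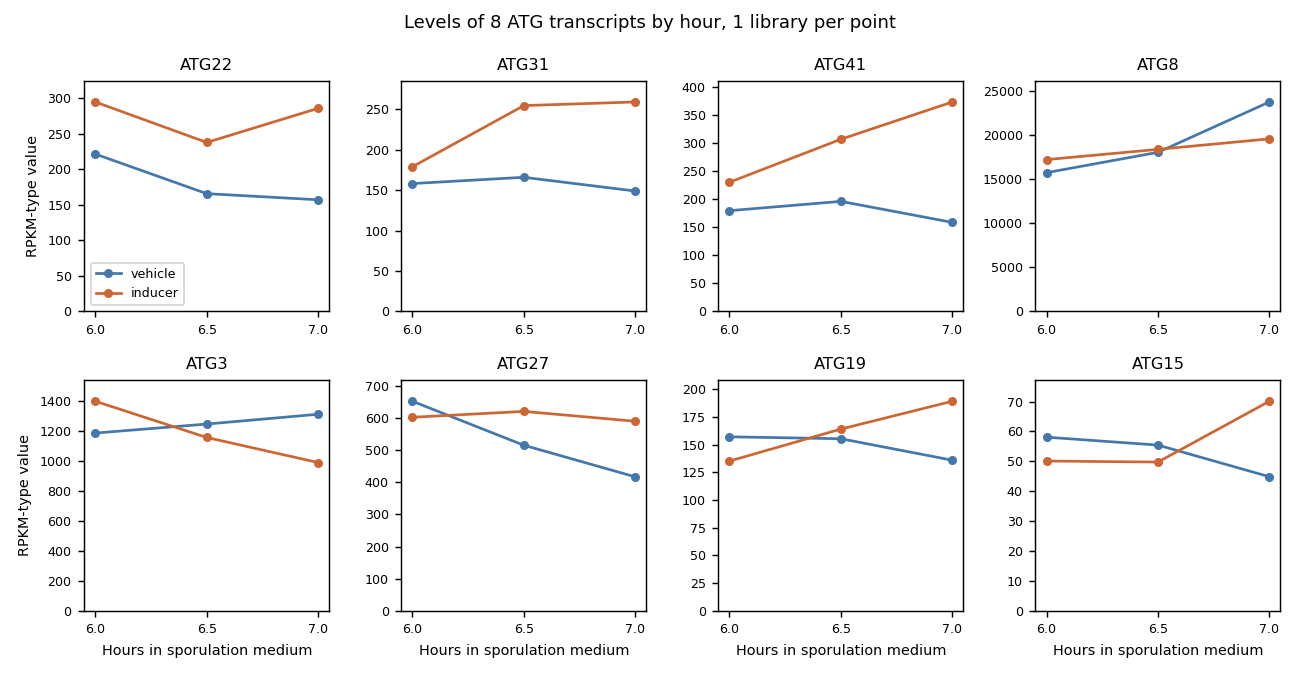
Levels of 8 ATG genes by hour in RPKM-type values, with 1 library per point; the upper row holds the 3 genes past the threshold between the arms and ATG8, and the lower row the 4 members with an unadjusted p under 0.05 for the difference between slopes. The lines of ATG22, ATG31 and ATG41 stay apart at each hour, and those of ATG8 and the lower row cross.

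Outside the ATG genes, 52 genes of the pathway and its regulators were taken from 4 lists, and 3 of them rose and 2 fell by limma, against 10.0% and 8.35% of all genes tested. In the list of selective-autophagy partners and cargo 1 of 10 passed. AMS1, the alpha-mannosidase that Atg19 and Atg34 deliver, stood at 321, 296 and 263 in vehicle and at 372, 519 and 601 with inducer (0.74 ± 0.19, limma adjusted p = 0.0393). Its 3 inducer libraries lay above all vehicle libraries. LAP4, the aminopeptidase I cargo of Atg19, was at -0.34 ± 0.12 (limma adjusted p = 0.1). SNX4 was at 0.33 ± 0.15 (limma adjusted p = 0.165), and its inducer libraries all lay above its vehicle libraries.

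Of 26 upstream regulators 2 rose and 2 fell, against 10.0% and 8.35% of all genes tested. TAP42, a regulator of phosphatases in signalling by the TOR kinase, stood at 157, 144 and 143 in vehicle and at 190, 247 and 298 with inducer (0.70 ± 0.17, limma adjusted p = 0.0296). GLN3, a GATA activator of nitrogen starvation genes, stood at 52.4, 57.6 and 47.9 and at 68.7, 75.9 and 71.2 (0.45 ± 0.13, limma adjusted p = 0.0484). The inducer libraries of TAP42 and GLN3 all lay above the vehicle libraries. UME6, the regulator that binds URS1, stood at 190, 206 and 144 in vehicle and at 136, 103 and 114 with inducer (-0.60 ± 0.15, limma adjusted p = 0.0368). All inducer libraries were below all vehicle libraries. GCN4, which turns on genes for making amino acids, stood at 4431, 3935 and 2505 in vehicle and at 2893, 1425 and 1090 with inducer. It fell by 1.09 ± 0.19 (limma adjusted p = 0.0118), although the vehicle library at 7 h lay below the inducer library at 6 h. Of 13 vacuole fusion genes and 3 PI3-kinase partners 0 passed by limma, where 18.4% of all genes did. In each of these lists 1 gene had an unadjusted p under 0.05, against 35.3% of all genes. The count was 4 of 10 for the selective-autophagy list and 9 of 26 for the upstream regulators. The 5 calls of AMS1, TAP42, GLN3, UME6 and GCN4 were lost without the 6.5 h pair, without the 7 h pair and without the filter on low values, and that of GLN3 also without the 6 h pair. Those of UME6, GCN4 and GLN3 were also lost without a term for the hour, and those of AMS1, TAP42, GLN3 and UME6 without the trend in the variance.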

How the data were processed

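Poly(A)-selected RNA of 6 libraries was sequenced in single-end reads of 50 bp, per the labels' protocols. Bowtie2, TopHat and SAMtools were used per the submitters' processing notes; no source used here gives the build, annotation, filters or strand setting. The authors deposited 1 table of RPKM values, with no count table; its unit was taken from how the values scale with length. Among detected ORFs below 40 reads, 77.5 to 81.0% had values that were whole multiples (within 0.02 of a read) of a constant over gene length less 60 bp. This gave the read numbers, and the 60 bp taken off raise the level of short ORFs. No column was unmapped. Values were taken as log2(value + 1), which understates changes of low genes; ORFs with a mean of at least 5 were tested with limma 3.58.1 (trend) in R 4.3.3, in 3 models: treatment with hours as a factor, treatment plus linear hours, and their interaction. The members, role lists, other pathway lists, markers and motifs were chosen with earlier results of these data known. Named genes were all members, HAC1 and called genes of the other lists. VPS30, VPS34, VPS15, LAP4, SNX4 and the later-named genes were added for their roles or after their values were seen. Simulated data with known changes were used to check the fits. A change of 1 log2 was recovered for 88.2% of changed genes between the arms and 84.4% over time (per hour). For the difference between slopes it was recovered for only 3.2%. At 2 log2 the shares were 97.8%, 97.6% and 70%. The check changed 200 of 6025 genes. Recovery of changes below 1 log2 was not tested. All ATG differences between the arms were below that size, the largest being 0.60 among the members (ATG22) and 0.74 for ATG41.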

Additional observations from a re-analysis of the deposited data

How the results depend on the processing

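The count of members higher with inducer, 1, became 0 without the filter on low values, without the variance trend and with no replicate block (no term for hours, so that the libraries are not paired), and was 0 to 1 when a pair was left out; the cause was not tested. Deviations from the arm means in libraries of the same hour correlated across genes with r = 0.32, 0.00083 and 0.11 at 6, 6.5 and 7 h, so the pairing rests on the shared hour alone. All 8 named calls were lost without the 6.5 h pair and without the 7 h pair. Over all genes the counts of 604 higher and 503 lower became 723 and 535, 196 and 22, and 76 and 9 without the 6, 6.5 and 7 h pair. They were 3 and 0 without the filter, 435 and 260 without the trend, 484 and 145 without the block, and 650 and 656 with median centring. Over time 15 rose and 25 fell, and with median centring 42 and 17. The median slope of the members, -0.14 per hour, was 0.0098 with median centring and -0.17 to -0.031 when a library was left out. The median difference between slopes, 0.09, was -0.040 with median centring and -0.20 to 0.34 when a library was left out. Genes near 0 changed sign. ATG38 was -0.00080 with median centring, and ATG11 was 0.0053 with HAC1 left out of the totals. Leaving out a pair gave ATG11 -0.12 to 0.089, ATG38 -0.14 to 0.18, ATG8 -0.13 to 0.078, ATG14 -0.20 to 0.038, ATG15 -0.18 to 0.24, ATG18 -0.16 to 0.18, ATG26 -0.025 to 0.16, ATG4 -0.23 to 0.073, ATG3 -0.26 to 0.065, ATG19 -0.069 to 0.28 and ATG29 -0.15 to 0.034. In all, 428 of the values of single genes under other settings kept direction and side of the threshold, 38 were no longer past it, 1 (ATG36, median centring) came past it and 13 changed sign. The 38 all came from the 8 named calls. Most of the 428 were of genes not past the threshold as reported, so this tally does not measure how stable the calls were.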

Other observations

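Ratios of transcript levels within a library do not depend on the scaling between libraries. They do not give the ratios of the proteins. The ratio of ATG8 to ATG12, the other ubiquitin-like protein of the pathway, was 39.4, 57.0 and 74.3 in vehicle and 42.0, 51.5 and 60.3 with inducer at 6, 6.5 and 7 h. It was higher at each later hour in both arms. The ratio of ATG8 to ATG4, its protease, was 21.5, 26.8 and 33.2 in vehicle and 20.5, 28.3 and 36.5 with inducer. The arms stayed close to each other at each hour, although both genes taken alone differed between the arms at 7 h in the same direction.

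Within the scaffold used in starvation, the ratio of ATG31 to ATG17 was 1.53, 2.01 and 1.58 in vehicle and 1.82, 2.77 and 2.53 with inducer. The ratio of ATG29 to ATG17 was 1.27, 1.22 and 1.54 in vehicle and 1.24, 1.24 and 1.24 with inducer. The ratio of ATG1 to ATG13 was 1.63, 1.82 and 1.95 in vehicle and 1.65, 1.28 and 1.28 with inducer. The ratio of the receptor ATG34 to its relative ATG19 was 4.52, 4.01 and 6.13 in vehicle and 5.05, 4.48 and 4.80 with inducer. For ATG22 to ATG15 the ratio was 3.81, 2.99 and 3.50 in vehicle and 5.88, 4.78 and 4.07 with inducer. These ratios were chosen after the values of single genes were seen and were not tested.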
